A study of Mus musculus with 14 samples.

Results

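The genes described here are 10 regulators of the G1 phase of the cell cycle: the D-type cyclins Ccnd1, Ccnd2 and Ccnd3, their kinases Cdk4 and Cdk6, the CDK inhibitors Cdkn1a, Cdkn1b, Cdkn2c and Cdkn2d, and the retinoblastoma gene Rb1. They were picked by gene symbol, and all 10 of 10 were measured in both deposited tables, among 13406 genes in one table and 14563 in the other. The study sequenced RNA from 14 libraries of mouse acute myeloid leukaemia (AML) cells of strain C57/BL6, taken from the spleens of terminally ill mice. In these leukaemias 1 retroviral vector carries MLL-AF9, a fusion oncogene made of parts of the genes Mll1 and Mllt3, with a dsRED reporter under Tet-Off control, and another carries oncogenic NRASG12D with the Tet-Off activator. All groups share both vectors and arose in lethally irradiated congenic mice given transduced foetal liver cells. The DOX libraries (n = 4) came from cells kept in vitro with doxycycline, which shuts off MLL-AF9, for 4 days, and the UT libraries (n = 4) from untreated cells. Titles pair each DOX library with a UT library, with the line name TRIMA2 for replicates 1 to 3 and TRIMA1 for replicate 4. The titles of DOX replicates 1, 2 and 4, and of no UT library, end in an R that the labels do not explain. The Id2-GFP libraries (n = 3) came from cells transduced in vitro with a retrovirus for Id2, an inhibitor of E-protein transcription factors, and the Control-GFP libraries (n = 3) from cells given the control vector. These transduced cells were sorted for GFP 2 days after transduction and had no doxycycline. No library had doxycycline without the Tet-Off vectors, so the drug itself and the loss of MLL-AF9 cannot be told apart.

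In G1, D-type cyclins bind and activate CDK4 and CDK6, and the active kinases phosphorylate the RB1 protein. Unphosphorylated RB1 holds E2F transcription factors in check, and its phosphorylation releases them to switch on genes for DNA replication. CDK inhibitors of the INK4 family, which include p18 (Cdkn2c) and p19 (Cdkn2d), bind CDK4 and CDK6 themselves, whereas those of the CIP/KIP family, p21 (Cdkn1a) and p27 (Cdkn1b), bind cyclin-CDK complexes. In the blood system the balance between these proteins accompanies the step from dividing progenitors to mature myeloid cells, and CDK6 is known as a target of MLL fusion proteins in leukaemia.

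Depth, as reads on tabled genes, was 17922644 to 25959766 for DOX and UT libraries and 14051150 to 14948487 for the transduced libraries. Each G1 regulator had at least 433 reads in every library, the lowest being Cdkn2c in the transduced cells. Levels are in CPM, the scaled read counts behind the deposited log2 values, and changes are differences of the deposited log2 values with their standard error (SE), tested with limma over all genes of a table. A gene passed at a Benjamini-Hochberg adjusted p under 0.05. The targeted genes followed the labels: Mll1 was at 114, 121, 144 and 131 CPM in DOX libraries, against 6369, 1998, 4430 and 2807 CPM in UT libraries, and Id2 was at 1266, 952 and 1631 CPM in Id2-GFP libraries, against 25.8, 31.2 and 51.5 CPM in Control-GFP libraries. Markers of immature myeloid cells were found in both tables, 11 of 11. Of 10 T and NK cell markers 7 were not in the tables, among them Cd3e, Cd3d and Cd3g, and of 8 B cell markers 4 were in them, with Cd79a, Ms4a1 and Pax5 among those that were not. Of 9 erythroid markers 1 was in the doxycycline table and 2 in the other, of 9 stromal and endothelial markers 2 were in each, and of 6 platelet markers 4 and 3 were. Markers that moved most with doxycycline were those of mature myeloid cells. All 10 of 10 macrophage markers rose, with a summed level of 25629 to 38076 CPM in DOX libraries and 2677 to 5593 CPM in UT libraries, and all 9 of 9 neutrophil markers rose, at 4414 to 9933 CPM in DOX libraries and 542 to 1990 CPM in UT libraries. Of the immature myeloid markers 5 rose and 5 fell, and with the pair block Mpo, at -1.20, made it 6 that fell (limma adjusted p = 3.7e-04). Their summed level was 5735 to 6710 CPM in DOX libraries and 4097 to 4795 CPM in UT libraries. That list also holds Ptprc, Itgam and Csf1r, which are not limited to immature cells. Of all genes 31.3% passed higher and 33.8% lower. Sums were lower in DOX libraries for the few markers found of erythroid cells (Tfrc, 48.6 to 62 CPM in DOX and 181 to 212 CPM in UT libraries) and of stroma and endothelium (Pecam1 and Pdgfrb, 76.5 to 111 CPM in DOX and 293 to 320 CPM in UT libraries). Platelet markers summed to 7.19 to 14.5 CPM in DOX and 23.6 to 49.2 CPM in UT libraries, T and NK markers to 0.713 to 2.12 CPM in DOX and 1.93 to 3.75 CPM in UT libraries, and B cell markers to 272 to 354 CPM in DOX and 278 to 476 CPM in UT libraries. Of the 4 B cell markers 2 rose and none fell, with a median log2 change of 0.68. With the pair block 2 rose and 2 fell. The part of these shifts in the results on G1 regulators was not tested. In bulk RNA, fewer cells of a kind and less RNA per cell cannot be told apart.

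After 4 days of doxycycline, 6 of the 10 G1 regulators rose, 3 fell and 1 did not pass the test. The kinases and the cyclins moved in opposite directions: both Cdk4 and Cdk6 fell, and Ccnd1, Ccnd2 and Ccnd3 rose. Under 22 alternative fits described below, both kinases and Ccnd1 passed in all 22, Ccnd3 in 18 and Ccnd2 in 11. The change of Ccnd3 was -0.03 in 1 of them. Among the inhibitors, Cdkn1a and Cdkn2d rose and Cdkn2c fell, and Rb1 rose. So many genes moved with doxycycline that the count of 9 of 10 stands against a background in which 65.1% of all genes passed, 31.3% higher and 33.8% lower. Each of the 9 had the same sign in all 4 pairs, including replicate 3, whose DOX title has no final R, and replicate 4, of the other line name. The share of all genes with the same sign in all 4 pairs was not counted. The pairs are the libraries that gave the calls, so their signs are not separate support. For 6 of 10 regulators the values of DOX and UT libraries did not overlap, against 60% of all genes. No test was made of whether the regulators differ from genes at large in these shares, and what follows describes which members moved which way and by how much.

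**Figure D1:**
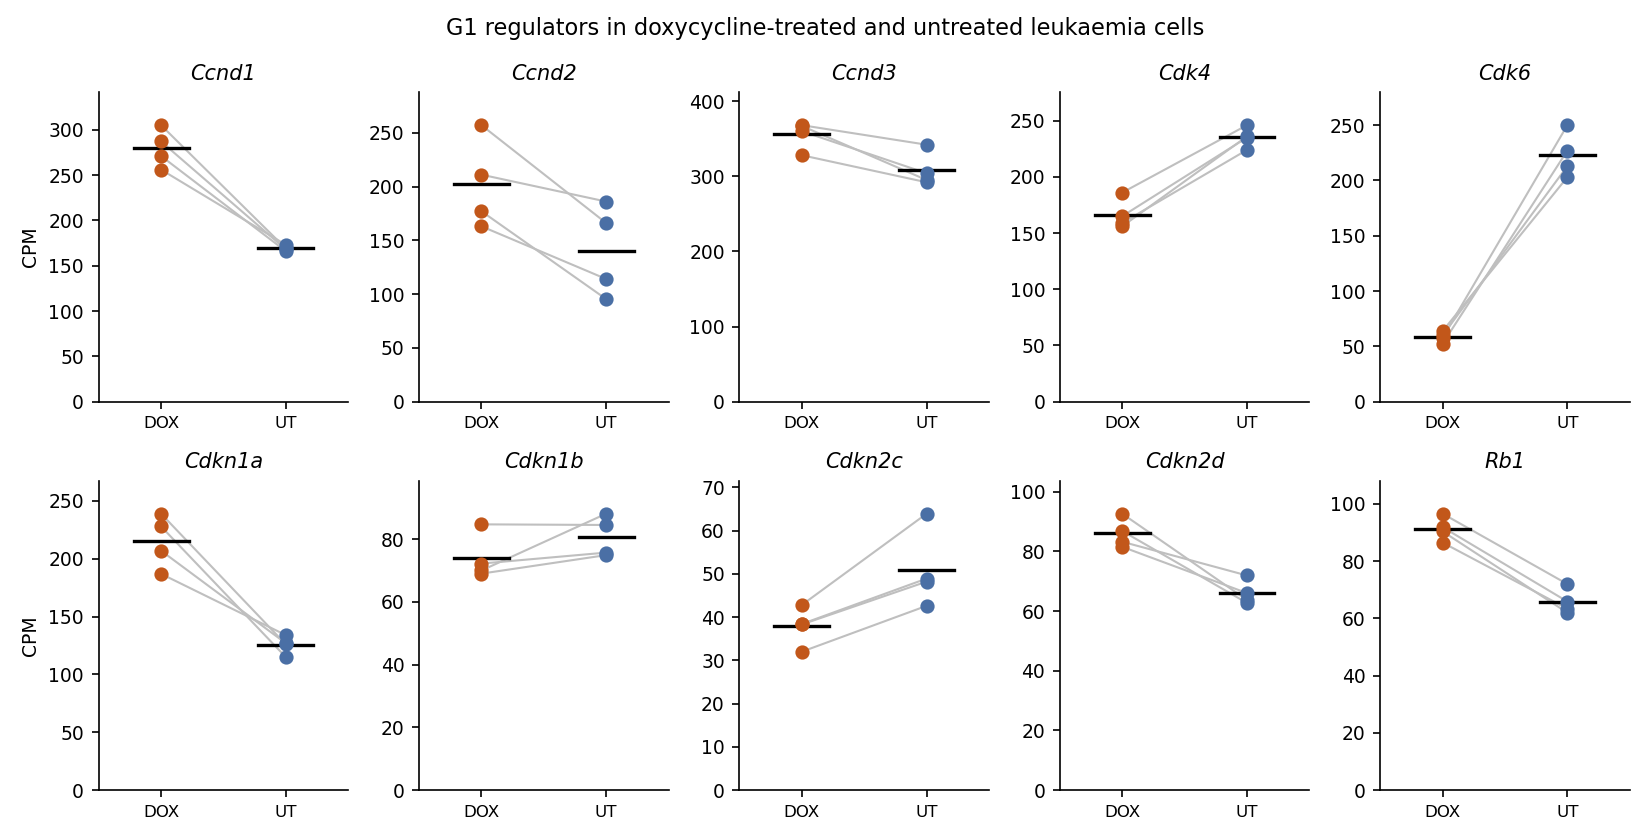
CPM (y axis, linear, from 0) of each G1 regulator in the 4 DOX and 4 UT libraries. Points are libraries, grey lines join libraries that share a pair label, and black bars are group means. Cdk6 averaged 58.5 CPM in DOX libraries and 223 CPM in UT libraries, and Ccnd1, Cdk4, Cdkn1a, Cdkn2d and Rb1 are also without overlap.

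Ccnd1 (cyclin D1, chromosome 7, 144929931 to 144939925, minus strand, in GENCODE M21 on GRCm38, as are all gene coordinates here) had 271, 287, 305 and 256 CPM in DOX libraries, against 166, 168, 169 and 173 CPM in UT libraries. All DOX libraries lay above all UT libraries, which were nearly level with each other. The log2 change was 0.72 ± 0.06 (SE, limma adjusted p = 3.9e-06), higher in 4 of 4 pairs. Ccnd2 (cyclin D2, chromosome 6, 127125162 to 127152193, minus strand) had 177, 211, 257 and 163 CPM in DOX libraries, against 95.3, 186, 166 and 114 CPM in UT libraries. The groups overlapped, but within each pair the DOX library was the higher, by 0.18 to 0.89 on the log2 scale. Its change of 0.55 ± 0.22 passed narrowly without regard to pairs (limma adjusted p = 0.048), and with the pair as a block the SE was 0.10 (limma adjusted p = 0.00112). Without the block, leaving out DOX replicate 1, 2 or 3 gave an adjusted p of 0.0592, 0.095 or 0.127, and leaving out UT replicate 1 or 4 gave 0.118 or 0.113. Ccnd3 (cyclin D3, chromosome 17, 47505051 to 47599691, plus strand) had 367, 328, 360 and 368 CPM in DOX libraries, against 295, 292, 304 and 342 CPM in UT libraries. These groups also overlapped, and the change was small, 0.21 ± 0.06 (limma adjusted p = 0.0158), though higher in 4 of 4 pairs. When libraries were scaled by their totals its change was -0.03 (adjusted p = 0.612).

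The kinases carried the largest change among the 10 genes. Cdk6 (chromosome 5, 3341485 to 3531008, plus strand) had 52.4, 59.9, 63.8 and 57.7 CPM in DOX libraries, against 227, 213, 203 and 250 CPM in UT libraries. The groups were far apart, and the fall was 3.82-fold, with a log2 change of -1.93 ± 0.08 (limma adjusted p = 2.4e-07) and pairs between -2.12 and -1.67. By size this was the 179th largest fall among the 13406 genes. Cdk4 (chromosome 10, 127063534 to 127067920, plus strand) had 165, 186, 156 and 159 CPM in DOX libraries, against 235, 246, 236 and 224 CPM in UT libraries. Every DOX library was below every UT library, with a log2 change of -0.50 ± 0.06 (limma adjusted p = 6.6e-05).

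Since both kinases fell together while Cdkn1a rose, the windows around their transcription starts are shown with their E-boxes (CANNTG, the letters bound by E proteins and by other basic helix-loop-helix factors such as MYC) in capitals. The sequences are RefSeq's for GRCm38.p6, from 250 bases before the start to 50 after it, 5′ to 3′ on the gene's strand. For Cdk4 the window is chr10:127063285-127063584, for Cdk6 chr5:3343643-3343942, and for the 2 annotated starts of Cdkn1a chr17:29090729-29091028 and chr17:29093519-29093818, all on the plus strand.
Cdk4: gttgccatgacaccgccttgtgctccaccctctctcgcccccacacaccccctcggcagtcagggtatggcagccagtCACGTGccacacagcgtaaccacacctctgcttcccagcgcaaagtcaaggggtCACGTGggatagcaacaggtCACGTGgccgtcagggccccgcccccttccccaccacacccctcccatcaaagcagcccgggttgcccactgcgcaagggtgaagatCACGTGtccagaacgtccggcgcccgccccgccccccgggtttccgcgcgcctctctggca
Cdk6: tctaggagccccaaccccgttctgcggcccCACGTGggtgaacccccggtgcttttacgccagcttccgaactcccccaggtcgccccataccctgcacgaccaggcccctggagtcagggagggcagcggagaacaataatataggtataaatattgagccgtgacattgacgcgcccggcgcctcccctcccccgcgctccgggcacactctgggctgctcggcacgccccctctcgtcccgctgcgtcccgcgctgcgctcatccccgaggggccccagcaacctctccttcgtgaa
Cdkn1a, first start: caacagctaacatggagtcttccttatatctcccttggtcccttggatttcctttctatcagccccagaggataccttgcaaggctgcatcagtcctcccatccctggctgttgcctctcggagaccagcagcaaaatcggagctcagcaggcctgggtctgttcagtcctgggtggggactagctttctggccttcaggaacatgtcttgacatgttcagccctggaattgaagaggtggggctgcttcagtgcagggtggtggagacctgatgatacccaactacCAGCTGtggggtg
Cdkn1a, second start: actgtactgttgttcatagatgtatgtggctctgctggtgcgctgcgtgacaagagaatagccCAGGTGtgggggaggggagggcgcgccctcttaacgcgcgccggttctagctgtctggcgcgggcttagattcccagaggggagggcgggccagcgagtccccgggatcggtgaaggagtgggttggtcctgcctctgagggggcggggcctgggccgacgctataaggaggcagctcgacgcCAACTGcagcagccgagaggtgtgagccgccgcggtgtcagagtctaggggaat
The Cdk4 window held 4 E-boxes, all of the form CACGTG, beginning 172, 118, 98 and 11 bases before the start. Of 32851 promoter windows in the RefSeq table, 7.15% held CACGTG and 8 windows (0.0244%) held it 4 times or more. That cutoff of 4 is the count found in the Cdk4 window itself, so the share is a description and no test. The Cdk6 window held a single CACGTG, 220 bases before the start. The first Cdkn1a window held CAGCTG, and the second held CAGGTG and CAACTG. Both windows of Ccnd3 and the windows of Cdkn1b and Cdkn2d held no E-box, as did 27.7% of all windows. The first Cdkn2c window held none and the second held CACGTG. An E-box of any form was in 72.3% of all windows. None of these windows of the regulators held the E2F motif TTTGGCGC or its variants TTTCCCGC and TTTCGCGC, of which 1.84% of all windows held at least 1. Motifs were searched on both strands, the pattern CANNTG includes every E-box form named here, and the motifs were chosen with the expression values known. Their part in the changes of these genes was not tested. Ccnd1, Ccnd2 and Rb1 were not matched in that table.

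Of the INK4 inhibitors, Cdkn2d (p19, chromosome 9, 21288410 to 21291407, minus strand) had 92.6, 86.8, 81.5 and 83.2 CPM in DOX libraries, against 63.7, 62.7, 66 and 71.9 CPM in UT libraries. The groups did not overlap, and it rose by 0.38 ± 0.06 on the log2 scale (limma adjusted p = 3.3e-04). Cdkn2c (p18, chromosome 4, 109660876 to 109667189, minus strand) went the other way. It had 38.3, 38.4, 32 and 42.8 CPM in DOX libraries, against 48.2, 48.9, 42.6 and 63.9 CPM in UT libraries. The highest DOX library just exceeded the lowest UT library, but each DOX library was below its own partner, and the log2 change was -0.42 ± 0.13 (limma adjusted p = 0.0157).

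Of the CIP/KIP inhibitors, Cdkn1a (p21, the best known target of p53, chromosome 17, 29090976 to 29100727, plus strand) had 207, 228, 239 and 187 CPM in DOX libraries, against 127, 115, 126 and 134 CPM in UT libraries. It was higher in every DOX library than in any UT library, by 0.78 ± 0.08 on the log2 scale (limma adjusted p = 2.2e-05), which was the largest rise of the 10. Cdkn1b (p27, a brake on cyclin E and cyclin A kinases, chromosome 6, 134920401 to 134925513, plus strand) had 72.2, 84.7, 70 and 69 CPM in DOX libraries, against 75.7, 84.5, 88.1 and 74.9 CPM in UT libraries. The groups lay across each other, and its log2 change of -0.13 ± 0.08 did not pass (limma adjusted p = 0.177, 95% interval -0.31 to 0.05). It passed without DOX replicate 2 (-0.20, adjusted p = 0.0287), and when libraries were scaled by their totals (-0.37, adjusted p = 0.00514) or by quantiles (-0.21, adjusted p = 0.0451). Rb1 (chromosome 14, 73183673 to 73325822, minus strand), whose protein the kinases inactivate, had 86.5, 91.9, 90.4 and 96.6 CPM in DOX libraries, against 63.4, 65.9, 62 and 72 CPM in UT libraries. The groups were apart, and the log2 change was 0.47 ± 0.06 (limma adjusted p = 6.7e-05), within 0.42 to 0.54 in all 4 pairs.

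These changes are relative to the scaling in the deposited table, in which the median gene changed by -0.03. The scaling factors were 0.891 to 0.951 in DOX libraries and 1.068 to 1.101 in UT libraries. With library totals in their place the median gene was at -0.27, and the split of all passing genes went to 2702 higher and 6912 lower, against 4198 higher and 4535 lower with the deposited scaling. Library totals move the change of every gene by the same amount, and with them Cdkn1a was at 0.54, Ccnd1 at 0.48, Ccnd2 at 0.31, Rb1 at 0.23, Cdkn2d at 0.14, Cdkn2c at -0.66, Cdk4 at -0.74 and Cdk6 at -2.17. Of these, Ccnd2 did not pass (limma adjusted p = 0.242). Counts then came to 4 higher and 4 lower among the 10, and quantile normalization gave 4 and 4 too, against 6 higher and 3 lower with the deposited scaling.

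**Figure D2:**
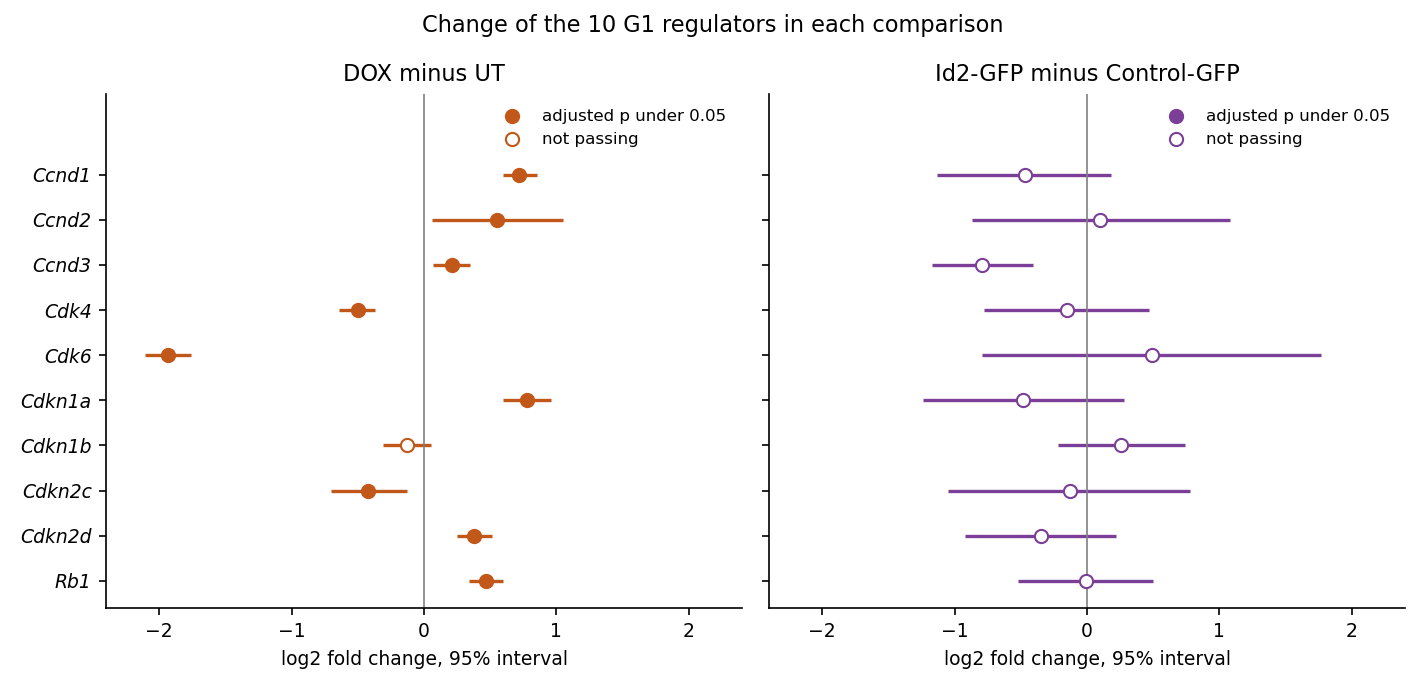
Log2 fold change (x axis) of each G1 regulator in each comparison, with its 95% interval from limma, fitted without pairs, as a line. Filled points passed at an adjusted p under 0.05 and open points did not. Cdk6 stands at -1.93 in the DOX panel, and all 10 points in the Id2-GFP panel are open.

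Annotated neighbours overlap several of these genes, and the sources used here do not state the strand of the counting. Rb1 shares 488 exon bases of 6015 with Rcbtb2, which rose by 1.39 ± 0.10 with doxycycline, and 408 with Lpar6, which rose by 0.93 ± 0.17. Ccnd3 shares 361 exon bases of 8775 with Bysl, which fell, with a log2 change of -0.51. Cdk4 shares 641 exon bases of 3249 with Tspan31, which rose by 0.23. Ccnd1 shares 1100 exon bases of 4709 with Oraov1, whose change of 0.12 did not pass (limma adjusted p = 0.136). Bysl and Tspan31 thus moved against the genes they overlap, whereas Rcbtb2 and Lpar6 moved with Rb1, and the part of shared reads in the change of Rb1 was not tested.

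To compare levels between genes, CPM was divided by the merged exon length in kb. This length counts every annotated exon, whichever transcript is in use, so ranks and shares between genes depend on it. It was 4709 bases for Ccnd1, 8775 for Ccnd3, 3249 for Cdk4 and 13989 for Cdk6. In undivided CPM Ccnd3 was above Ccnd1, at 356 against 280 in DOX and 308 against 169 in UT libraries. Cdk4 and Cdk6 averaged 235 and 223 CPM in UT libraries. In DOX libraries the order from the top was Cdkn1a at 60.6 ± 6.51, Ccnd1 at 59.4 ± 4.5, Cdkn2d at 54.7 ± 3.12 and Cdk4 at 51.2 ± 4.16 CPM per kb (SD, n = 4), neighbours whose ranges overlapped. Ccnd3 followed at 40.5 ± 2.15, clear of its neighbours on both sides. Ccnd2 at 21.4 ± 4.46, Cdkn1b at 16.2 ± 1.6, Rb1 at 15.2 ± 0.692 and Cdkn2c at 14.1 ± 1.65 CPM per kb overlapped in turn, and Cdk6 was last and apart at 4.18 ± 0.340. In UT libraries Cdk4 led at 72.4 ± 2.81 CPM per kb, above Cdkn2d at 42 ± 2.63, and neither overlapped its neighbour. Ccnd1, Cdkn1a and Ccnd3 came next, at 35.9 ± 0.676, 35.3 ± 2.11 and 35.1 ± 2.63, and could not be ranked within their spread. Cdkn2c, Cdkn1b, Cdk6, Ccnd2 and Rb1 closed the order, between 19 ± 3.38 and 10.9 ± 0.741, each overlapping the next. Thus Cdk6 was last in DOX cells and 8th of 10 in UT cells, and Cdk4 was 4th in DOX cells and first in UT cells.

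Within each family the make-up, by the same level per kb of merged exon, differed too. The summed D-type cyclins came to 122 ± 8.19 CPM per kb in DOX libraries and 85.9 ± 4.61 in UT libraries (SD, n = 4 each), while Cdk4 and Cdk6 together came to 55.4 ± 4.15 in DOX libraries and 88.4 ± 1.90 in UT libraries. Ccnd1 made up 49% ± 1.1 of the D-type cyclin level in DOX libraries and 41.9% ± 1.97 in UT libraries, and Ccnd3 33.5% ± 3.09 in DOX libraries and 40.9% ± 3.03 in UT libraries. Cdk6 made up 6.88% to 8.69% of the Cdk4 and Cdk6 level in DOX libraries, against 16.7% to 20.6% in UT libraries. Cdkn2c made up 20.5% ± 1.92 of the p18 and p19 level in DOX libraries and 31% ± 2.75 in UT libraries, and Cdkn1a 78.8% ± 1.82 of the p21 and p27 level in DOX libraries and 66.5% ± 2.86 in UT libraries. The ranges of these shares in DOX and UT libraries did not overlap for any of the 5 genes just named. For Ccnd2 they did, at 15.2% to 20.5% in DOX libraries and 12.8% to 22.3% in UT libraries. The shares of Cdk4, Cdkn2d and Cdkn1b are the remainders of their families. All these shares are descriptions of the values above and were not tested apart from them.

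**Figure D3:**
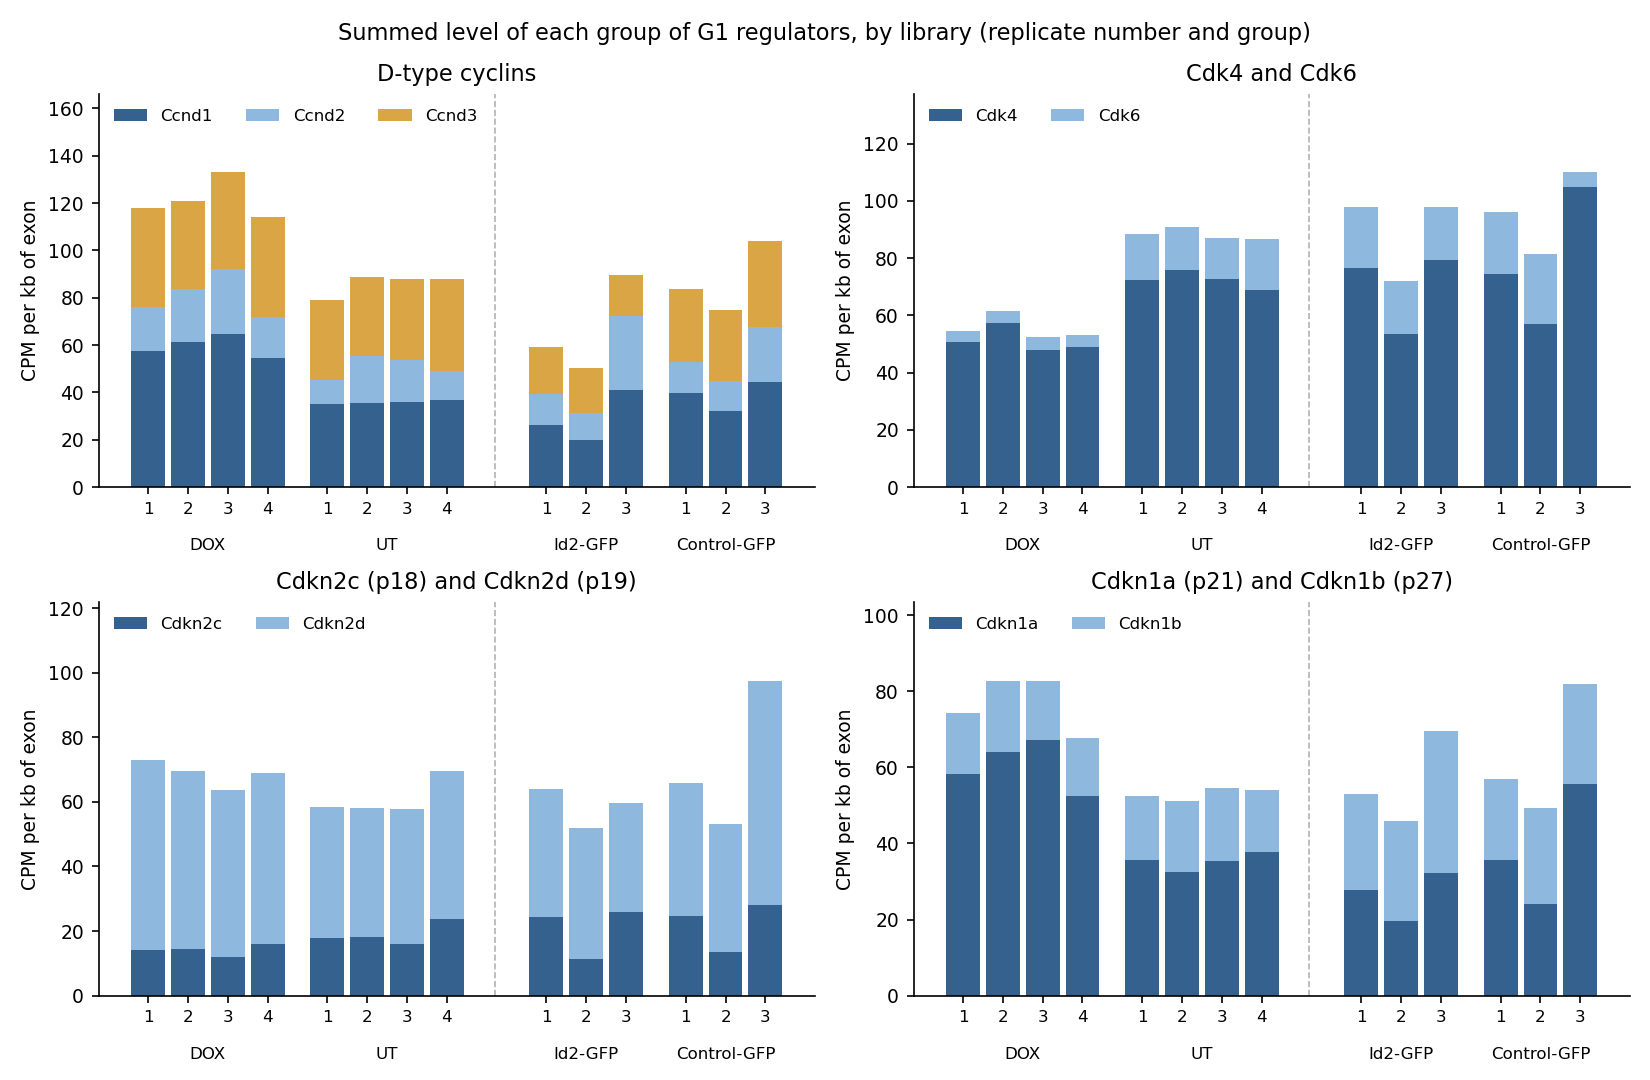
Summed level in CPM per kb of merged exon (y axis, from 0) of 4 families of G1 regulators in each library, with the genes stacked by colour; numbers under the bars are replicates, and a dashed line separates the 2 tables, which were scaled apart. The D-type cyclin bars are 114 to 133 in DOX and 79 to 88.6 in UT libraries, and the Cdk4 and Cdk6 bars 52.5 to 61.5 in DOX and 86.8 to 91 in UT libraries.

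For each regulator the most similar genes were those with the smallest root mean squared difference in log2 CPM over the 14 libraries, each gene taken as its deviation from its mean in its own table, among 12672 genes in both tables. Junb, a subunit of the AP-1 factor, was nearest to Cdkn1a, with a difference of 0.1 against a spread of Cdkn1a itself of 0.43. Ccnd1 and Cdkn1a were in each other's pair of nearest genes, at 0.17. Pvt1, a long noncoding RNA next to Myc, was the other gene nearest to Ccnd1, also at 0.17. Cdk4 was followed most closely by Rabepk, at 0.07, and Mrpl49, a mitochondrial ribosomal protein gene, at 0.08. Ankrd28 and Pitpnm2 were the nearest to Cdk6, at 0.28 and 0.29, against a spread of Cdk6 itself of 0.89. Map2k3 was the nearest to Ccnd3, at 0.12. The pairs for the others were Kdm5b and Kif3c for Ccnd2, Kdm3a and 3110057O12Rik for Cdkn1b, Apoo-ps and Faf1 for Cdkn2c, Apoa1bp and Ubald2 for Cdkn2d, and Whsc1l1 and Trak1 for Rb1. These distances are descriptions over libraries that share their leukaemias and treatments.

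Other genes of the same pathway were read from fixed lists, with the median gene at -0.03. Beside the counts below, 31.3% of all genes passed higher and 33.8% lower. On library totals 2702 of the 13406 genes passed higher and 6912 lower. No list was tested against these shares. Of 10 measured genes for other cyclins and kinases of G1 and S phase and their activators, 8 fell and 1 rose, with a median log2 change of -0.41. Cdk1, the mitotic kinase, averaged 109 ± 3.39 CPM in DOX libraries and 161 ± 4.22 CPM in UT libraries (SD, n = 4 each), a log2 change of -0.57. Ccne2 (cyclin E2) was at -0.79, Cdc25a, the phosphatase that activates CDK2, at -0.70, and Ccna2 (cyclin A2) at -0.48, with limma adjusted p-values of 8.5e-06, 1.3e-05 and 1.7e-05. Cdk5, mostly known from neurons, was the 1 that rose, by 0.42; it is named here after its value was seen. Among 4 other CDK inhibitors, Cdkn2b (p15) rose, to 6.25 ± 2.99 CPM in DOX libraries against 1.77 ± 0.501 CPM in UT libraries (log2 change 1.74 ± 0.34, limma adjusted p = 0.00143). Cdkn1c (p57), Cdkn3 and Cdkn2a did not pass, with log2 changes of 0.81, -0.16 and 0.23; with the pair block Cdkn1c passed (limma adjusted p = 0.0403), making 2 that rose.

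Downstream of the kinases, 4 of 7 genes for other pocket proteins and the MuvB core fell and none rose, with a median of -0.23. Rbbp4, a histone-binding partner of RB1, was at -0.52, Rbl1 (p107) at -0.51, Lin9 at -0.44 and Lin52 at -0.23, whereas Rbl2 (p130) was at 0.04 and did not pass. On library totals 7 of 7 fell, Rbl2 among them, with a median of -0.47. With median-of-ratios scaling 3 of 7 fell, so this count depends on the scaling. Of 10 E2F and DP factor genes 7 fell and 1 rose, with a median of -0.57. Tfdp1, the usual dimer partner of E2Fs, averaged 172 ± 8.13 CPM in DOX libraries and 293 ± 13 CPM in UT libraries (SD, n = 4 each). The repressive members E2f6, E2f7 and E2f8 were at -0.83, -0.82 and -0.68. E2f2, an activating E2F, was the 1 that rose, by 0.76, and is named after its value was seen. E2f1, another activating member, fell, at -0.35, as did E2f4, at -0.46. E2f3 and E2f5, at -0.02 and 0.2, did not pass. These too are named after their values were seen.

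The S-phase genes that E2Fs switch on moved together: 21 of 21 fell, with a median of -0.84. The replicative helicase genes Mcm2, Mcm3 and Mcm5 were at -1.19, -0.97 and -1.09, and Cdc6, which loads that helicase, at -1.21, each with a limma adjusted p of 2.4e-07. Of the G2 and M phase genes 12 of 12 fell, with a median of -0.49. Top2a (topoisomerase II alpha) averaged 489 ± 19.7 CPM in DOX libraries and 805 ± 29.3 CPM in UT libraries, and Cdc20, Aurkb and Aurka, of mitosis, were at -0.62, -0.55 and -0.52. On library totals the counts for these lists were 21 of 21 and 12 of 12 as well.

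Of 12 genes that control the turnover of G1 cyclins and CDK inhibitors, 5 rose and 6 fell, with a median of -0.09. Those with the smallest p were Dtl, which directs a ubiquitin ligase to p21, at -1.03, Skp2 and its cofactor Cks1b, which act on p27, at -0.80 and -0.81, and Skp1a, a subunit shared by many ligases, at -0.32. The 5 that rose, named after their values were seen, were Fbxo4 at 0.71, Fbxo31 at 0.42, Ambra1 and Gsk3b at 0.29 each, and Fbxw7, which acts on cyclin E, at 0.28. On library totals 1 rose and 7 fell in this list, so the count of rising genes depends on the scaling. Of 12 p53 target genes, which leave out Cdkn1a, 10 rose and 2 fell, with a median of 0.59; on library totals 8 rose and 2 fell. Trp53inp1 averaged 73.4 ± 13.2 CPM in DOX libraries and 24 ± 1.76 CPM in UT libraries (SD, n = 4 each), Sesn2 was at 0.83 and the death receptor gene Fas at 1.58. Aen and Pmaip1 fell, at -0.63 and -0.57, the second being named after its value was seen. Of 13 FOXO target genes, 10 rose and 2 fell, with a median of 0.41; on library totals 6 rose and 2 fell. Il7r, the interleukin 7 receptor, rose to 99.1 ± 12.4 CPM in DOX libraries against 11.8 ± 2.64 CPM in UT libraries, and the quiescence factor Klf2, Bcl6 and S1pr1 rose by 1.96, 1.6 and 3.13. Beside all these counts stand the summed macrophage and neutrophil markers given above, which were higher in every DOX library than in any UT library; their part in the lists was not tested.

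**Figure D4:**
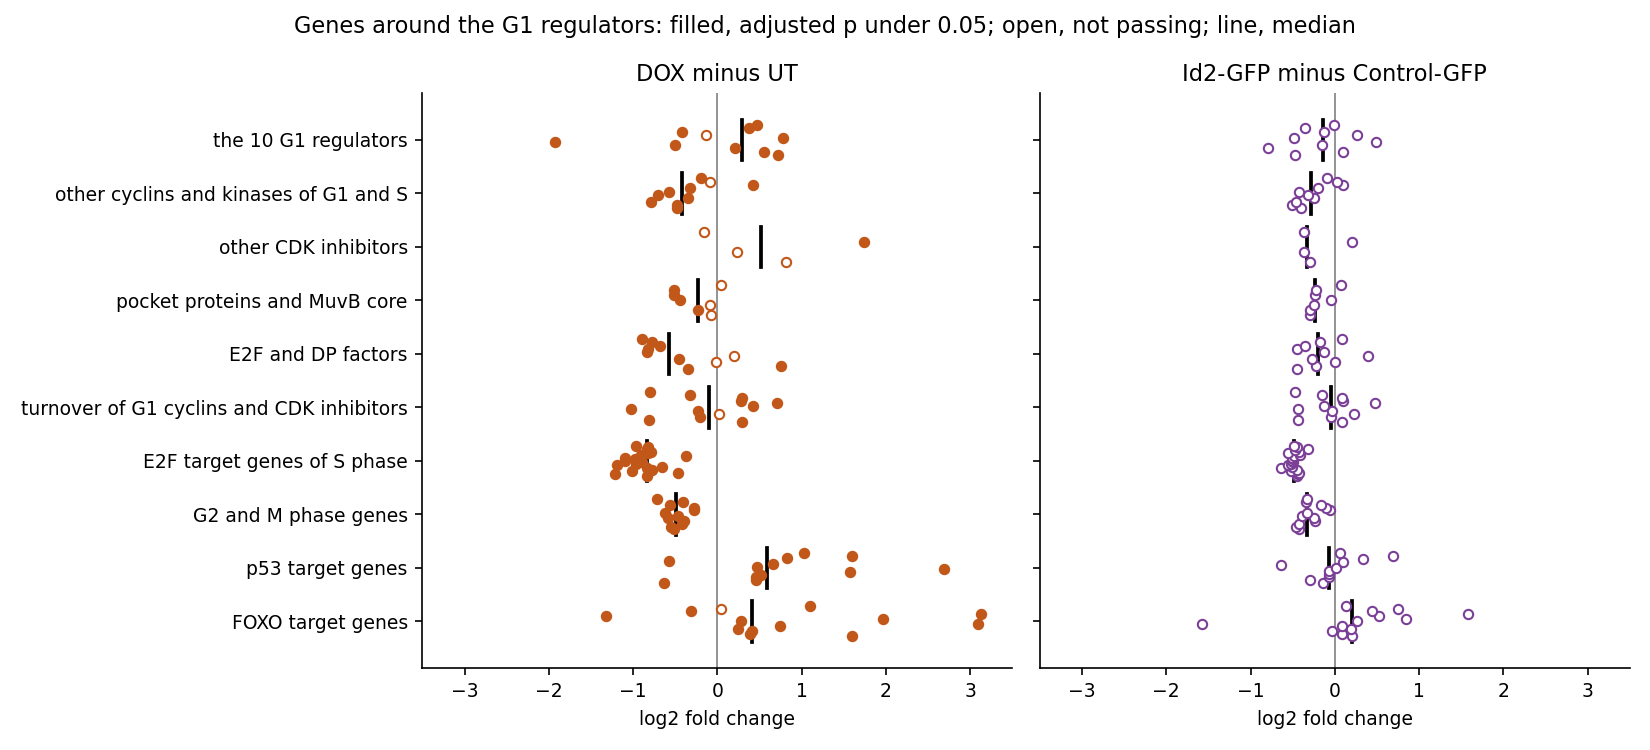
Log2 fold change (x axis) of each measured gene of the lists around the G1 regulators, with DOX minus UT on the left and Id2-GFP minus Control-GFP on the right. Filled points passed at an adjusted p under 0.05, open points did not, and black lines are list medians. On the left all 21 S-phase targets lie below 0, with a median of -0.84, and on the right no point is filled.

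The other comparison set Id2-GFP cells against Control-GFP cells. Before its values, 1 library must be described, since Control-GFP replicate 3 stood apart. On the first principal component, with 57.8% of the variance, it was at 87.79, and the other 5 libraries were between -41.55 and 23.05. For 67.6% of all genes its value lay outside the range of the other 5 libraries, against 17.4% to 35.8% for each of the others. Among the G1 regulators this was so for 8 of 10. It had Ccnd1 at 209, Ccnd3 at 320, Cdk4 at 341, Cdkn1a at 197, Cdkn2c at 75.4 and Cdkn2d at 109 CPM, all above the other 5, and Cdk6 at 71.5 and Rb1 at 52.9 CPM, both below them. Its Mll1 level, 1234 CPM, was the lowest of the 6, with the others at 2132 to 6369 CPM, while Mllt3, the other partner in the fusion, was at 394 CPM, inside the 284 to 790 CPM of the others. Its Mki67 level, a marker of dividing cells, was 560 CPM, with the others at 651 to 1245 CPM. The macrophage markers, of which 6 of 10 were measured here, did not set it apart. Their summed level was 951 CPM, against 885 to 1956 CPM in the others. Sums above those of all 5 others were found for platelet markers, at 94.4 CPM against 22.3 to 68.9 CPM, and for T and NK markers, at 7.85 CPM against 3.32 to 6.07 CPM. Of the B cell markers, 4 of 8 were in the table, Ighm among them, with a sum of 829 CPM in this library and 139 to 441 CPM in the others. The cause of its position was not tested, and the log2 changes of the regulators are given with and without it.

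None of the 10 regulators passed between Id2-GFP and Control-GFP cells (0 of 10; limma, adjusted p = 0.998 for each), where 0.0137% of all genes passed, namely Id2 itself and Gm6175. At an unadjusted p under 0.05 there was 1 regulator, Ccnd3, against 2.45% of all genes, and with the replicate number as a block there were 3, against 6.28% of all genes. Ccnd3 was also the only 1 of the 10 whose groups did not overlap, against 6.95% of all genes. Ccnd3 had 175, 167 and 150 CPM in Id2-GFP libraries, against 269, 263 and 320 CPM in Control-GFP libraries. The Id2-GFP libraries were close together, all below the controls, and lower in 3 of 3 pairs, by 0.62 to 1.09 on the log2 scale. For this gene and those below, the share of all genes with the same sign in all 3 pairs was not counted. Its log2 change was -0.79 ± 0.16 (SE, limma unadjusted p = 0.00154, 95% interval -1.17 to -0.41), the 20th smallest p among 14563 genes, and did not pass after adjustment (0.998, and 0.238 with the block). Without Control-GFP replicate 3 its log2 change was -0.70 (limma adjusted p = 0.713). In the doxycycline table the same gene was slightly higher in DOX cells, as given above. Bysl, whose exons overlap Ccnd3, averaged 37.6 CPM in Id2-GFP and 45.7 CPM in Control-GFP libraries and did not pass either.

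Ccnd1 had 124, 93.2 and 193 CPM in Id2-GFP libraries, against 188, 152 and 209 CPM in Control-GFP libraries, and Cdkn1a had 98.9, 69.9 and 115 CPM in Id2-GFP libraries, against 126, 86.1 and 197 CPM in Control-GFP libraries. Each was lower in 3 of 3 pairs, between -0.7 and -0.12 on the log2 scale for Ccnd1 and between -0.78 and -0.3 for Cdkn1a. The groups overlapped. Without regard to pairs the SE was 0.28 for Ccnd1 and 0.33 for Cdkn1a, and with the replicate block 0.2 and 0.19. With the replicate block their unadjusted limma p-values were 0.0376 and 0.0298 and their adjusted ones 0.727 and 0.676. Without Control-GFP replicate 3 their log2 changes were -0.37 and -0.17, against -0.47 and -0.48 with it.

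For Cdk6 the answer turned on that 1 library. It had 299, 261 and 259 CPM in Id2-GFP libraries, against 300, 342 and 71.5 CPM in Control-GFP libraries. The log2 change was 0.49 ± 0.55 with Control-GFP replicate 3 and -0.23 without it, and neither passed (limma adjusted p = 0.998 and 0.993). Cdk4 had 249, 173 and 258 CPM in Id2-GFP libraries, against 242, 186 and 341 CPM in Control-GFP libraries, and its log2 change was -0.15 with that library and 0.07 without it. Both are within the spread between replicates, and the 95% intervals reach from -0.79 to 1.77 for Cdk6 and from -0.78 to 0.47 for Cdk4.

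The other 5 regulators overlapped between the groups. Ccnd2 had 123, 110 and 296 CPM in Id2-GFP libraries, against 122, 119 and 222 CPM in Control-GFP libraries, with replicate 3 high in both groups; its log2 change was 0.10 with Control-GFP replicate 3 and 0.40 without it. Cdkn1b had 114, 119 and 171 CPM in Id2-GFP libraries, against 97.7, 114 and 121 CPM in Control-GFP libraries, higher in 3 of 3 pairs with a log2 change of 0.26 ± 0.20, and of 0.32 without Control-GFP replicate 3. Cdkn2c had 65, 30.2 and 69.7 CPM in Id2-GFP libraries, against 66, 36.3 and 75.4 CPM in Control-GFP libraries, with replicate 2 low in both; its log2 change was -0.13 with that library and 0.07 without it. Ccnd2 and Cdkn2c thus varied with the replicate number in both groups. With the replicate block the SE was 0.19 for Ccnd2 and 0.18 for Cdkn2c, against 0.42 and 0.39 without it, and neither passed. Cdkn2d had 62.7, 63.9 and 53 CPM in Id2-GFP libraries, against 64.8, 62.3 and 109 CPM in Control-GFP libraries, with a log2 change of -0.35 with Control-GFP replicate 3 and -0.09 without it. Rb1 had 64.6, 64.1 and 78.1 CPM in Id2-GFP libraries, against 71.8, 87.1 and 52.9 CPM in Control-GFP libraries, and its log2 change was -0.01 ± 0.22 with that library and -0.20 without it. With 3 libraries a group the 95% intervals of the 10 regulators, from the fit without pairs, were wide. None of these genes is shown to be alike in the groups.

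**Figure D5:**
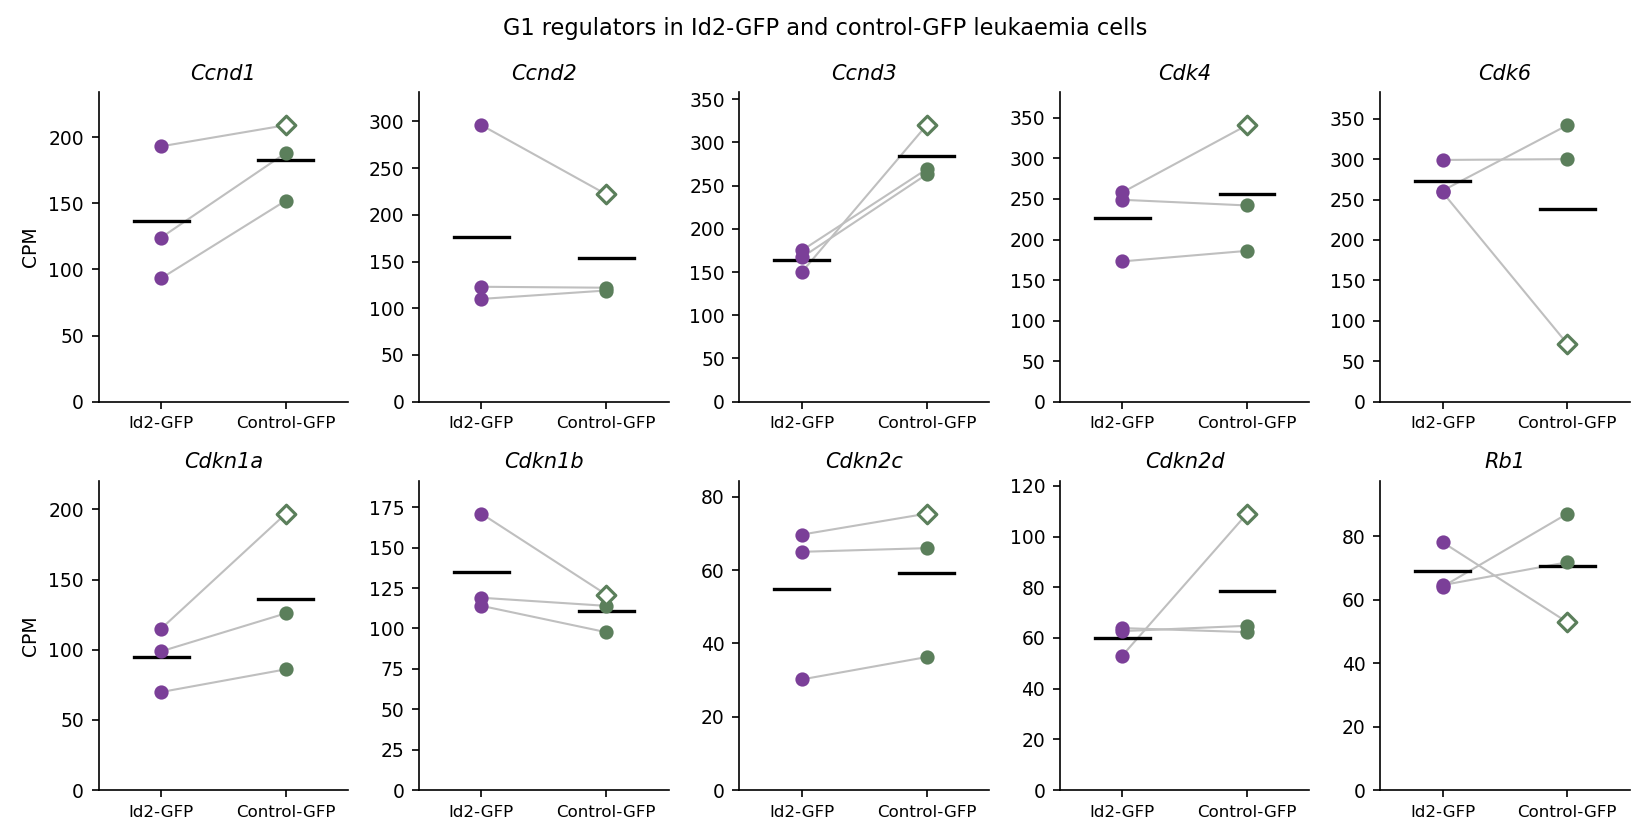
CPM (y axis, linear, from 0) of each G1 regulator in the 3 Id2-GFP and 3 Control-GFP libraries; grey lines join libraries with the same replicate number, black bars are group means, and the open diamond is Control-GFP replicate 3. For Ccnd3 the Id2-GFP libraries sit at 150 to 175 CPM, below the Control-GFP libraries at 263 to 320, and for Cdk6 the diamond lies alone at 71.5 CPM.

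By level per kb of exon, Cdk4 led in both groups, at 69.8 ± 14.3 CPM per kb in Id2-GFP libraries and 78.9 ± 24.2 in Control-GFP libraries (SD, n = 3 each), followed by Cdkn2d at 38.1 ± 3.80 in Id2-GFP libraries and 50.1 ± 16.8 in Control-GFP libraries. Ccnd3 was 9th of 10 in Id2-GFP libraries, at 18.7 ± 1.45, and 5th in Control-GFP libraries, at 32.4 ± 3.57. Rb1 was last in both, at 11.5 ± 1.32 in Id2-GFP libraries and 11.7 ± 2.85 in Control-GFP libraries. From Cdkn2d down to Ccnd3 each gene overlapped the next in Id2-GFP libraries, and in Control-GFP libraries each overlapped the next except Ccnd3 and Cdkn1b. Without Control-GFP replicate 3, Cdk4 and Cdkn2d still led in Control-GFP libraries, at 65.9 and 40.4 CPM per kb, Ccnd3 was 4th at 30.3, and Rb1, at 13.2, was 9th, above Ccnd2 at 12.8. The D-type cyclins summed to 59.3, 50.4 and 89.5 CPM per kb in Id2-GFP libraries, against 83.5, 74.8 and 104 in Control-GFP libraries. The sums overlapped, and each Id2-GFP sum was below its partner. Cdk6 made up 21.8%, 25.9% and 18.9% of the Cdk4 and Cdk6 level in Id2-GFP libraries, against 22.4%, 30% and 4.64% in Control-GFP libraries.

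In the lists around the regulators no gene passed with Id2 (limma; 2 genes in all passed). The S-phase E2F targets all had a log2 change below 0, 21 of 21, with a median of -0.49. So had 12 of 12 G2 and M phase genes, with a median of -0.33. Of all genes 55.3% were below 0, and the median gene was at -0.03. Genes of such lists are often expressed together, so they are not independent observations, and no test was made on these counts. Without Control-GFP replicate 3 these counts were also 21 of 21 and 12 of 12, with medians of -0.45 and -0.47 and 51.4% of all genes below 0. Without both libraries of replicate 3 they were again 21 of 21 and 12 of 12, with medians of -0.39 and -0.20 and 50.7% of all genes below 0. Mcm2, Mcm3 and Mcm5 were at -0.56, -0.52 and -0.51 with standard errors of 0.27, 0.23 and 0.25. Other cyclins and kinases of G1 and S phase had a median of -0.29, E2F and DP factors -0.20, p53 targets -0.07 and FOXO targets 0.21. Without Control-GFP replicate 3 these medians were -0.20, -0.27, 0.01 and 0.22. Il7r, a FOXO target, was at -1.57 ± 0.30 (limma adjusted p = 0.841), opposite in sign to its change with doxycycline. Summed immature myeloid markers were at 3041, 3246 and 2561 CPM in Id2-GFP libraries, against 3796, 3909 and 2928 CPM in Control-GFP libraries, lower in 3 of 3 pairs. Neutrophil markers, of which 7 of 9 were measured, summed to 151, 346 and 154 CPM in Id2-GFP libraries. In Control-GFP libraries they summed to 127, 208 and 125 CPM, so Id2-GFP sums were higher in 3 of 3 pairs. The macrophage markers, of which 6 of 10 were measured, did not follow them. Their sums were 1265, 1756 and 885 CPM in Id2-GFP libraries, against 1956, 1542 and 951 CPM in Control-GFP libraries. These were lower for replicates 1 and 3 and higher for replicate 2. With the replicate block Mpo, of the first list, and Mmp8, of the second, passed, at -1.74 and 1.96 (limma adjusted p = 0.0359 and 0.0104), both named after their values were seen. The stromal and endothelial sum was 216 to 227 CPM in Id2-GFP libraries against 277 to 382 CPM in Control-GFP libraries, from 2 of 9 markers, with Col1a1, Col1a2 and Cdh5 not in the table. The B cell marker sum was 139 to 296 CPM in Id2-GFP libraries against 379 to 829 CPM in Control-GFP libraries, from 4 of 8 markers. The median log2 change of those 4 genes was -0.06, and 0.01 without Control-GFP replicate 3. The part of all these markers in the values of the G1 regulators was not tested.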

How the data were processed

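RNA sequencing of 14 libraries was analysed from 2 deposited tables, of 13406 genes (13419 entries, 13 of them repeats) and 14563 genes. Per the submitters' processing notes, CASAVA 1.8.2, TopHat2, HTSeq and limma were used with build mm10; the role of each is not given in the sources used here. Per the file headers and the values, the authors deposited log2 CPM: log2 of reads plus 0.5 over a scaled library size. All values came back as whole reads within 0.01, so depth was read from them. The offset understates changes of low genes, and counting error alone is smaller than the spread between replicates given here. Nothing in the labels says that replicates came from separate animals, so p-values measure the spread between these samples, which may be technical.

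Each table was fitted alone with limma 3.58.1 in R 4.3.3 (lmFit, and eBayes with a trend) on the deposited log2 values, DOX against UT and Id2-GFP against Control-GFP, two-sided, with Benjamini-Hochberg adjustment over all genes and a threshold of 0.05. The fit was tested on simulated reads that held no pairing and no outlying library. That test therefore does not show how the fit behaves with either, as in these data. Titles give each DOX library the same string as a UT library (line TRIMA2 for replicates 1 to 3, line TRIMA1 for replicate 4), and Id2-GFP and Control-GFP libraries share replicate numbers. The deviations of same-numbered libraries from their group means correlated at 0.514, 0.552, 0.483 and 0.454, and at 0.472, 0.581 and 0.557, so the numbers pair the samples; the block was an alternative fit. Other alternatives were library totals, quantile and median-of-ratios scaling, an offset of 2 reads, floors on mean log2 CPM of 1 and 3, no trend, voom weights, array weights, and leaving out libraries.

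Replicates differed by more than counting noise. Named genes are the 10 regulators, up to 4 genes per list with the smallest p after doxycycline, the pair of genes most like each regulator, and Id2, Mll1 and Mllt3; some genes that this rule names are not reported here. The regulators and lists were chosen with earlier results of these data known. Older symbols were matched through RefSeq synonyms. Python 3.11.15, pandas 2.3.3 and matplotlib 3.10.9 made the summaries and plots.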

Additional observations from a re-analysis of the deposited data

How the results depend on the processing

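After doxycycline, 7 of the 10 regulators (Ccnd1, Cdk4, Cdk6, Cdkn1a, Cdkn2c, Cdkn2d and Rb1) passed in the same direction under all 22 alternatives. Ccnd2 passed under 11 of 22, with adjusted p-values from 0.00112 to 0.242. Ccnd3 passed under 18, and turned to -0.03 with library totals; without the pair of replicate 1 or 3 its adjusted p was 0.1 or 0.0846. Cdkn1b passed under 3. Between Id2-GFP and Control-GFP cells none of the 10 passed under 19 alternatives. The replicate block gave 35 genes in place of 2 there (16 higher, 19 lower), and beyond Cdkn1c after doxycycline it changed no call on a regulator or on a gene of the 9 lists around them; among the marker lists it added Mpo, Cd79b and Ighm after doxycycline and Mpo and Mmp8 with Id2. Mean log2 CPM floors of 1 and of 3 each left 1 gene, and leaving out libraries gave 0 to 3 genes. Leaving out libraries moved the Id2 log2 change of Ccnd2 between -0.35 and 0.4, of Cdk4 between -0.36 and 0.07, of Cdk6 between -0.23 and 0.93, of Cdkn2c between -0.45 and 0.25, and of Rb1 between -0.3 and 0.2. Array weights, which gave Control-GFP replicate 3 the least weight, put Cdk4 at 0.11, Cdk6 at -0.03 and Cdkn2c at 0.26, and Rb1 was at 0.04 with library totals, 0.03 with quantile normalization and 0.02 with median-of-ratios scaling. The causes were not tested. At 433 reads or more per regulator and library, depth leaves a small counting error.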
